A study of Mus musculus with 16 samples.

Results

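The core genes of the circadian clock were measured in whole brains of male mice deficient in Slc5a8, a sodium-coupled transporter of monocarboxylates, and of wild-type male mice. The 10 genes were Per1, Per2, Per3, Cry1, Cry2, Arntl, Clock, Npas2, Nr1d1 and Dbp, and every non-control array probe that carried one of these gene names was taken. This gave 13 probes of 55681, for 10 gene names of 34821. The 4 groups were Slc5a8-deficient mice at 18 months, Slc5a8-deficient mice at 4 months, wild-type mice at 18 months and wild-type mice at 4 months, each with 4 one-colour Agilent arrays and all labelled C57BL/6J. They are biological replicates, per the design text. How the deficient line was made, whether it was deficient in all tissues, and the hour at which brains were removed are not given in the sources used here.

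The circadian clock is a feedback loop of transcription that runs in nearly every cell and, in the brain, is led by the suprachiasmatic nucleus. CLOCK, or its relative NPAS2, pairs with BMAL1, the product of Arntl, and switches on the Per, Cry, Nr1d1 and Dbp genes through E-box sequences. PER and CRY proteins then block that activator. REV-ERB alpha, the product of Nr1d1, represses Arntl through ROR elements, and DBP acts on D-box sequences of output genes. The messenger RNAs of most of these genes therefore rise and fall over the day, with Arntl near its low point when Nr1d1 and Dbp are high. Per1 and Per2 are also induced by light, neuronal activity and glucocorticoids.

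The elements through which the loop closes were sought in the RefSeq start-site windows of the members (GRCm38.p6, 250 bases before to 50 after the start). There were 13 windows for 9 of the genes, and none was found for Per2. The motifs searched, on both strands, were the E-box CACGTG, the E'-box CACGTT, the D-box TTATGTAA or TTACGTAA, the ROR core TAGGTCA and the cAMP response element TGACGTCA. No match overlapped another. The 4 windows shown are those of Per1, which was called in these data, of Cry1, which carries both kinds of E-box, and of Nr1d1 and Arntl, whose products act on each other's genes. Capitals mark the matches, which are the E-box in Per1, the E'-box and then the E-box in Cry1, the E'-box in Nr1d1 and the ROR core in Arntl.
Per1, plus strand, chr11:69098699-69098998: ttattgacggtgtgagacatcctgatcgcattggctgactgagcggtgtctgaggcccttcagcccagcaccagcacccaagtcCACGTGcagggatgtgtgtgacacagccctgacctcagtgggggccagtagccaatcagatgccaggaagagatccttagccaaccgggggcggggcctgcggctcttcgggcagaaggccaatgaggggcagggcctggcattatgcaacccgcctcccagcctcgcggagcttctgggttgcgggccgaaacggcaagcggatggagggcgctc
Cry1, minus strand, chr10:85185005-85185304: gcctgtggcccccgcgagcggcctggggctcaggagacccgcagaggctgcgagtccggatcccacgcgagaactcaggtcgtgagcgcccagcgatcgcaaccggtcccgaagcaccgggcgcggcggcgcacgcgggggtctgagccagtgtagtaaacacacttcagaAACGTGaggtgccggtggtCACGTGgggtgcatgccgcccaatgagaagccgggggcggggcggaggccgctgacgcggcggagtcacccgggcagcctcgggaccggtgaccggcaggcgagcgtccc
Nr1d1, minus strand, chr11:98775328-98775627: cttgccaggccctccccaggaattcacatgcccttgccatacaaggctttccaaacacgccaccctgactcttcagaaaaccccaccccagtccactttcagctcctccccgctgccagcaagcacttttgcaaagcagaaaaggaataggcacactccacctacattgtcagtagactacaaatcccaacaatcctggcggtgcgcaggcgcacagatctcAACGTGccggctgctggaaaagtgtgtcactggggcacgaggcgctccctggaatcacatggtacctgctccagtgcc
Arntl, plus strand, chr7:113207261-113207560: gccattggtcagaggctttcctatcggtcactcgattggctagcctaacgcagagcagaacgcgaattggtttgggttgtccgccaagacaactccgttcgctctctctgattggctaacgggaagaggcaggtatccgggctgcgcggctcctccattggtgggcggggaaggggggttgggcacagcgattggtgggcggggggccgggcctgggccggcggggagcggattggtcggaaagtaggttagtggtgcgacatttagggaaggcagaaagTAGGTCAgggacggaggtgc
The E-box lay at -166 from the start site in Per1 and at -60 in Cry1. The E'-box lay at -79 in Cry1, at -28 in Nr1d1 and at -166 in Cry2. The ROR core lay at 30 bases after the start in Arntl, and the Per3 window held the D-box at -205 and -158. The windows of Clock, Npas2 and Dbp and the other windows of Per1 and Arntl held no match to any of these motifs. Of all 32851 windows of this length, 7.15% held an E-box, 4.68% an E'-box, 1.06% a D-box, 2.61% a ROR core and 1.79% a cAMP response element. These matches are letters in a window and not measured sites.

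Values are levels, the log2 signal of a probe minus the log2 of the 75th percentile of its array, so that 0 is a signal at that percentile. Levels were compared between arrays for a given probe and never between probes. Testing was limited to the 33072 probes that the scanner software called well above background throughout 1 or more of the groups. Of the 13 clock probes, 12 were among them, with at least 1 for each gene, while the second Per1 probe was above background on 1 of 16 arrays. A call is an adjusted p under 0.05 in limma, adjusted over all tested probes, and each gene is counted by its probe with the highest mean. Differences are given on the log2 scale with their standard error.

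Several features of the arrays touch every result below. All 6 neuron, 6 astrocyte and 6 oligodendrocyte markers examined were well above background on all 16 arrays. Of 3 liver markers, Alb and Apoa1 did not pass the filter, while Cyp2e1 was well above background on all 16 arrays. Cyp2e1 was called higher at 18 months in wild-type mice (1.43) and averaged over both genotypes (0.96). In these comparisons 0.369% and 1.46% of all tested probes were called. The Slc5a8 probe was well above background on 0 of 16 arrays, so it gives no check of the genotype labels. All deficient arrays lay on 1 slide and all wild-type arrays on another, and the effect of a slide cannot be told apart from that of genotype. Within each slide the ages lay in different rows, and the order of the rows was opposite on the 2 slides. The age difference in each genotype, the genotype difference at each age and the interaction of age and genotype therefore cannot be told apart from a slide row effect, while the 2 averaged differences hold both rows equally. Array 1 of the deficient mice at 4 months stood at 102.1 on the first principal component of all probes (36.1% of the variance), and array 2 of the wild-type mice at 18 months and array 4 of the wild-type mice at 4 months at 33.1 and 29.2, while the other 13 arrays lay at or below 0.01. Markers of tissue at the border of the brain also varied. The summed signal of 5 caudal Hox genes, in units of the array's 75th percentile, ran over 0.487 to 1.29 in deficient mice at 18 months, 1.48 to 5.3 in deficient mice at 4 months, 0.0225 to 0.33 in wild-type mice at 18 months and 0.492 to 2.33 in wild-type mice at 4 months. That of 5 red cell genes ran over 17.6 to 84, 85.2 to 317, 90.9 to 152 and 118 to 173 in the same groups, and that of 5 pituitary hormone genes over 1.27 to 60.3, 4.17 to 118, 1.44 to 3.83 and 2.03 to 283. That of 6 choroid plexus genes ran over 54.1 to 132, 74.5 to 146, 75.7 to 124 and 87.5 to 244. Between the ages in deficient mice, 5 of 6 oligodendrocyte markers were lower at 18 months (median -0.34) and 1 was called higher. In that comparison 5 of 6 astrocyte markers were lower, 1 of them called, and 3 of 6 neuron markers were lower, with 2.1% of all tested probes called. The part of these markers in the clock gene results was not tested. In whole-brain RNA, fewer cells of a type and less RNA per cell cannot be told apart.

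The period genes held all of the calls. At 18 months, against 4 months, Per2 and Per1 were higher in deficient brains, by 2.82-fold and 1.63-fold. At 4 months Per2 was 2.01-fold lower in deficient than in wild-type brains. In wild-type brains no clock gene differed between the ages beyond the threshold. The remaining 8 genes were not called in any of the 7 comparisons.

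Per2 encodes a repressor of the loop and was read by a probe at chr1:93313046-93313105 on the minus strand (NCBI37/mm9). Its level was -0.71, -0.74, -0.97 and -0.71 in deficient mice at 18 months and -2.08, -2.15, -2.58 and -2.29 in deficient mice at 4 months. It was -1.11, -1.52, -1.16 and -1.15 in wild-type mice at 18 months and -1.22, -0.995, -1.45 and -1.41 in wild-type mice at 4 months. The deficient mice at 4 months were the low group and those at 18 months the high group, with no array of either overlapping any other group, while the wild-type groups overlapped throughout. The means were -0.78 ± 0.13, -2.28 ± 0.22, -1.24 ± 0.19 and -1.27 ± 0.21 in the same order (SD, n = 4 each). The age difference was 1.49 ± 0.14 in deficient mice (adjusted p 0.000191, limma) and 0.03 ± 0.14 in wild-type mice (adjusted p 1). At 4 months deficient minus wild type was -1.01 ± 0.14 (adjusted p 0.00183). At 18 months it was 0.45 ± 0.14, with all 4 deficient arrays above all 4 wild-type arrays, and missed the threshold (adjusted p 0.157). The sign of the genotype difference thus differed between the ages, and the interaction was 1.46 ± 0.19 (adjusted p 0.00228). Averaged over both genotypes the age difference was 0.76 ± 0.10 (adjusted p 0.000822), a call lost with slide as a block and no interaction term (adjusted p 0.103). Averaged over both ages the genotype difference was -0.28 ± 0.10 (adjusted p 0.164). Without array 1 of the deficient mice at 4 months the interaction was 1.53 (adjusted p 0.00201). The slide row limit above applies to the age difference in deficient mice, the genotype difference at 4 months and the interaction.

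Per1, the other light-inducible period gene, was read at chr11:68923364-68923423 on the plus strand (NCBI37/mm9). Its level was 4.35, 4.08, 3.97 and 4.45 in deficient mice at 18 months and 3.42, 3.90, 3.48 and 3.23 in deficient mice at 4 months. It was 4.12, 4.10, 4.45 and 4.32 in wild-type mice at 18 months and 3.90, 4.01, 4.12 and 3.96 in wild-type mice at 4 months. The deficient mice at 4 months were again the low group, just below the wild-type mice of that age, and both 18-month groups overlapped. The age difference was 0.71 ± 0.15 in deficient mice (adjusted p 0.0228, limma) and 0.25 ± 0.15 in wild-type mice (adjusted p 0.969). Deficient minus wild type was -0.49 ± 0.15 at 4 months (adjusted p 0.105) and -0.03 ± 0.15 at 18 months (adjusted p 0.974). The interaction was 0.46 ± 0.21 (adjusted p 0.443), so a difference between the genotypes in the age effect was not shown for Per1. The age difference averaged over both genotypes was 0.48 ± 0.10 (adjusted p 0.0322), a call lost in 14 of 29 alternatives, among them slide as a block (adjusted p 0.0683). The call in deficient mice was lost without array 1 of the deficient mice at 4 months (0.68, adjusted p 0.0518) and with the replicate number as a block (adjusted p 0.064).

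Per3 (chr4:150379256-150379315, minus strand, NCBI37/mm9) is the period gene whose loss leaves rhythms in mice largely intact. It had levels of -2.52, -2.71, -2.73 and -2.34 in deficient mice at 18 months and -2.91, -2.78, -3.45 and -3.29 in deficient mice at 4 months. In wild-type mice they were -3.00, -3.41, -2.88 and -3.40 at 18 months and -3.13, -3.80, -3.22 and -3.24 at 4 months. The deficient mice at 18 months were the highest group and overlapped neither the younger deficient mice nor the wild-type mice of their age. Their difference from wild type was 0.60 ± 0.19 (adjusted p 0.172, limma) and from the younger deficient mice 0.53 ± 0.19 (adjusted p 0.134).

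**Figure D1:**
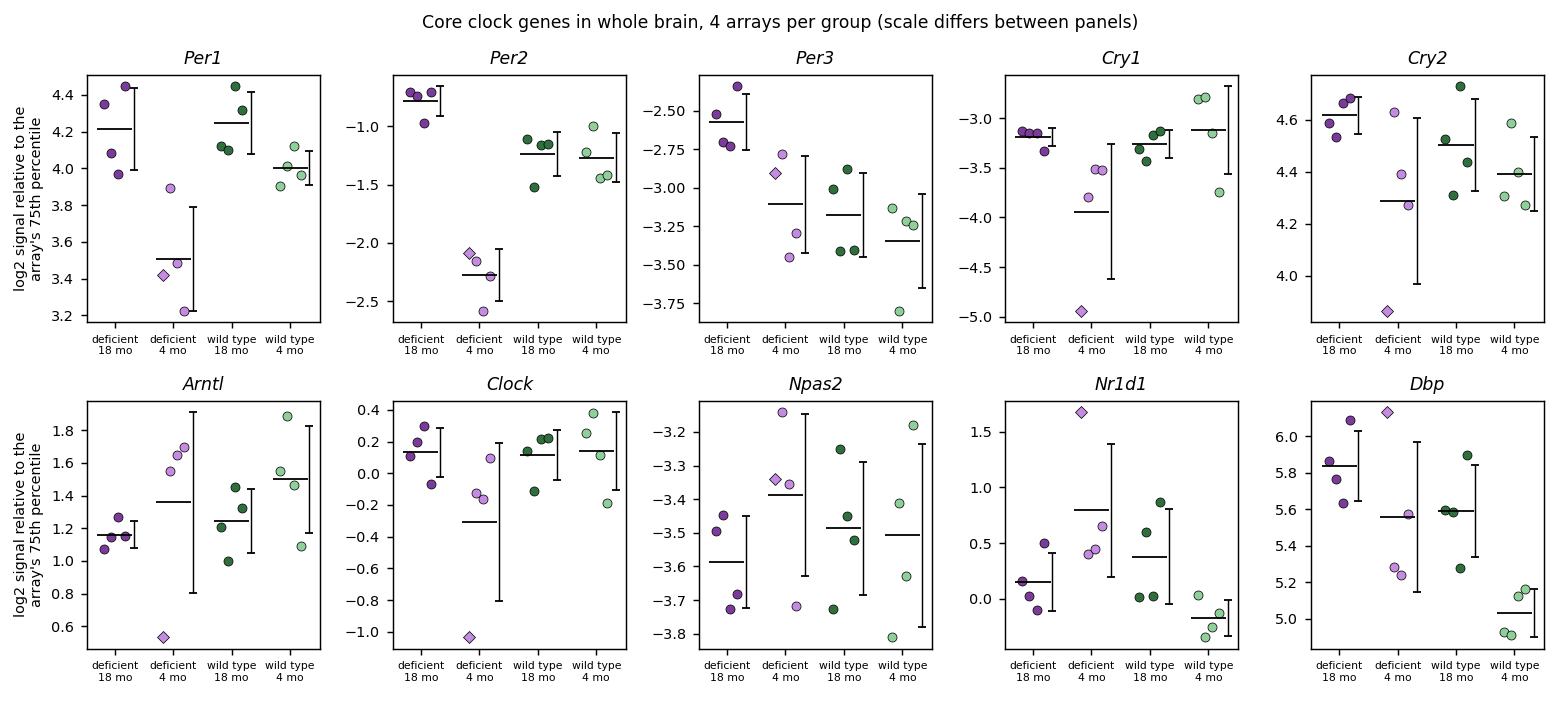
Level of each clock gene's highest probe (log2 signal relative to the 75th percentile of the array, own scale in each panel) in deficient mice at 18 and 4 months and wild-type mice at 18 and 4 months. Points are arrays, the bar is the mean and the whisker the SD (n = 4), and the diamond is array 1 of the deficient mice at 4 months, which lies apart from the other 3 for Cry1, Arntl, Clock and Nr1d1. Per2 is highest in deficient mice at 18 months, at -0.97 to -0.71, and lowest in deficient mice at 4 months, at -2.58 to -2.08.

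The cryptochromes are the main repressors of the CLOCK and BMAL1 pair. Cry1 (chr10:84594731-84594790, minus strand, NCBI37/mm9, as for the positions that follow) had levels of -3.13, -3.15, -3.15 and -3.33 in deficient mice at 18 months and -4.94, -3.79, -3.51 and -3.52 in deficient mice at 4 months. It had -3.31, -3.43, -3.17 and -3.13 in wild-type mice at 18 months and -2.80, -2.79, -3.14 and -3.74 in wild-type mice at 4 months. The younger deficient mice were lowest, with array 1 far below the other 3. Deficient minus wild type at 4 months was -0.82 ± 0.27 (adjusted p 0.14, limma) and the age difference in deficient mice 0.75 ± 0.27 (adjusted p 0.145). Without that array the same differences were -0.49 and 0.42 (adjusted p 0.226 and 0.302). Without the 3 arrays that stood apart, a choice made after the data were seen, Cry1 was called lower in deficient mice at 4 months (-0.70, adjusted p 0.02, limma). In the same fit it was called lower averaged over both ages (-0.34, adjusted p 0.0371). Cry2 (chr2:92243807-92243866, minus strand) had levels of 4.53 to 4.68 in deficient mice at 18 months and 3.86 to 4.63 in deficient mice at 4 months, a difference of 0.33 ± 0.14 (adjusted p 0.214), or 0.19 without array 1 of the younger deficient mice (adjusted p 0.49). In wild-type mice it had 4.31 to 4.73 at 18 months and 4.27 to 4.59 at 4 months. Its second probe (chr2:92251417-92251476) gave 0.30 for that comparison, and neither probe was called anywhere.

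Of the activators, Arntl (chr7:120457261-120457320, plus strand) had levels of 1.07 to 1.27 in deficient mice at 18 months, 0.53 to 1.70 in deficient mice at 4 months, 0.997 to 1.46 in wild-type mice at 18 months and 1.09 to 1.89 in wild-type mice at 4 months. All groups overlapped, and its age difference was -0.20 ± 0.22 in deficient mice and -0.25 ± 0.22 in wild-type mice (adjusted p 0.627 and 1, limma). Array 1 of the deficient mice at 4 months was the lowest of all, at 0.53, and without it the other 3 lay at 1.55 to 1.70, above all deficient mice at 18 months, with an age difference of -0.47 (adjusted p 0.152). Without the 3 arrays that stood apart, a choice made after the data were seen, Arntl was called lower at 18 months in deficient mice (-0.47, adjusted p 0.046). In the same fit it was called lower averaged over both genotypes (-0.39, adjusted p 0.0329). Clock (chr5:76641377-76641436, minus strand) had levels of -0.07 to 0.30, -1.03 to 0.09, -0.11 to 0.23 and -0.19 to 0.38 in the same order of groups. Its lowest value was again array 1 of the deficient mice at 4 months, and the difference from wild type at that age was -0.45 ± 0.20 (adjusted p 0.27), or -0.21 without that array. Npas2 (chr1:39418941-39419000, plus strand), the CLOCK relative of the forebrain, had levels of -3.73 to -3.45, -3.72 to -3.14, -3.73 to -3.25 and -3.81 to -3.18. Its groups overlapped in every comparison, and its differences lay between -0.20 and 0.12 in the 4 comparisons of single groups.

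Nr1d1, the repressor of Arntl, was read by a 60-base probe whose ends lie 503 bases apart on the genome, at chr11:98630526-98631028 on the minus strand (NCBI37/mm9), so that it crosses at least 1 splice junction and reads spliced RNA.
Nr1d1 probe: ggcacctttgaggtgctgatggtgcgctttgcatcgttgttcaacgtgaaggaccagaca
Its level was 0.16, 0.03, -0.10 and 0.50 in deficient mice at 18 months and 1.68, 0.40, 0.44 and 0.66 in deficient mice at 4 months. It was 0.02, 0.60, 0.02 and 0.87 in wild-type mice at 18 months and 0.03, -0.35, -0.25 and -0.12 in wild-type mice at 4 months. At 4 months all deficient arrays lay above all wild-type arrays, with a difference of 0.97 ± 0.26 (adjusted p 0.0808, limma), or 0.67 without array 1 (adjusted p 0.126). With the authors' deposited log2 values for the same arrays this difference was 0.93 (adjusted p 0.0463). The age difference was -0.65 ± 0.26 in deficient mice (adjusted p 0.186), or -0.35 without array 1 (adjusted p 0.44), and 0.55 ± 0.26 in wild-type mice (adjusted p 0.798), and the interaction of -1.20 ± 0.37 was not called (adjusted p 0.28).

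Dbp, an output gene of the loop with a strong daily rhythm, had 2 probes, at chr7:52965461-52965520 and chr7:52965322-52965381 on the plus strand (NCBI37/mm9). The probe with the higher mean, the first of these, gave 5.86, 5.77, 5.63 and 6.09 in deficient mice at 18 months and 6.13, 5.28, 5.24 and 5.58 in deficient mice at 4 months. It gave 5.60, 5.59, 5.28 and 5.90 in wild-type mice at 18 months and 4.93, 4.91, 5.13 and 5.16 in wild-type mice at 4 months. The wild-type mice at 4 months were the lowest group and overlapped no other. Against them the difference was 0.53 ± 0.18 in deficient mice of the same age (adjusted p 0.159, limma), or 0.34 without array 1 (adjusted p 0.294), and 0.56 ± 0.18 in wild-type mice at 18 months (adjusted p 0.411). The age difference averaged over both genotypes was 0.42 ± 0.13 (adjusted p 0.139), and 0.52 without array 1 of the deficient mice at 4 months (adjusted p 0.0197). This was the only call among the 16 fits that leave out 1 array, with adjusted p-values up to 0.251. With the authors' deposited log2 values the averaged difference was 0.47 (adjusted p 0.0328). The second probe gave 5.56, 5.32, 5.08 and 5.68 in deficient mice at 18 months and 6.25, 4.96, 4.79 and 5.11 in deficient mice at 4 months. It gave 5.04, 5.47, 4.86 and 5.59 in wild-type mice at 18 months and 4.59, 4.33, 4.61 and 4.79 in wild-type mice at 4 months. On it too the wild-type mice at 4 months were the lowest group without overlap, though array 3 of the younger deficient mice all but equalled their highest. Its genotype difference at 4 months was 0.70 ± 0.27 (adjusted p 0.202), or 0.37 without array 1 (adjusted p 0.358), and its averaged age difference was 0.40 ± 0.19 (adjusted p 0.351), or 0.56 without array 1 (adjusted p 0.0429). That too was the only call of this averaged difference among the 16 fits that leave out 1 array, with adjusted p-values up to 0.487.

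Counted over the 10 genes, 0 were called between deficient and wild-type mice at 18 months, where 1.36% of all tested probes were called, and 2 had an unadjusted p under 0.05, against 10% of all probes. The groups did not overlap for 2 genes, Per2 and Per3, against 8.03% of probes. At 4 months 1 was called, and lower, where 1.45% of all probes were called and 0.85% were called lower. At that age 6 genes had an unadjusted p under 0.05, against 17.2% of probes, and the groups did not overlap for 4 genes, namely Per1, Per2, Nr1d1 and Dbp, against 9.39% of probes. Averaged over both ages 0 were called, against 3.13% of probes, with 4 under an unadjusted 0.05, against 15.1%.

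Between the ages, 2 genes were called in deficient mice, both higher at 18 months, where 2.1% of probes were called and 1.18% were called higher. In that comparison 7 genes had an unadjusted p under 0.05, against 20.4% of probes. The groups did not overlap for Per1, Per2, Per3 and Cry1, all higher at 18 months, against 17.4% of probes without overlap and 8.21% without overlap and higher. In wild-type mice 0 were called, against 0.369% of probes, and Dbp was alone in having an unadjusted p under 0.05 (6.28% of probes) and groups without overlap (3.51% of probes). Averaged over both genotypes 2 were called, both higher at 18 months, against 1.46% of probes called and 0.638% called higher, and 5 had an unadjusted p under 0.05, against 14.6%. In the interaction 1 was called, with a positive value, against 0.236% of probes called and 0.157% called with a positive value. The median difference of the 10 genes was 0.38 for age in deficient mice and 0.07 for age in wild-type mice, and -0.12 for genotype at 4 months and 0.04 for genotype at 18 months, beside medians of all probes between 0.00 and 0.02. The comparisons share groups of arrays, so their counts are not independent.

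**Figure D2:**
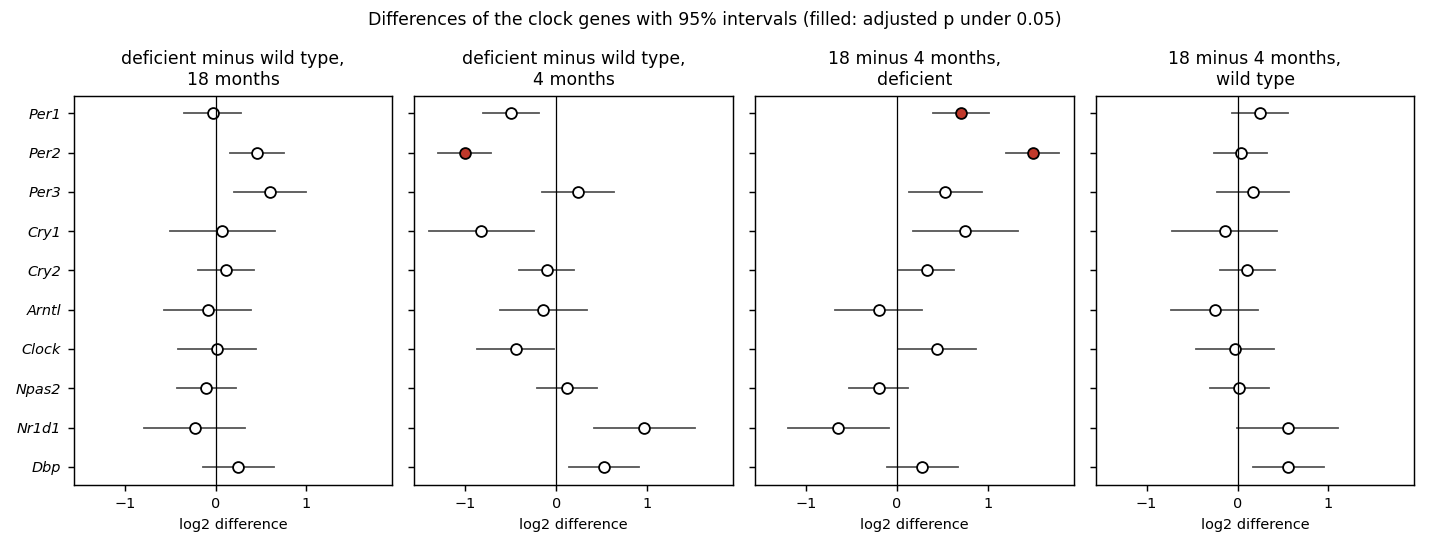
Log2 difference of each clock gene with its 95% interval for deficient minus wild type at 18 and at 4 months and for 18 minus 4 months in deficient and wild-type mice. Filled points passed an adjusted p of 0.05, namely Per2 at -1.01 between genotypes at 4 months and Per1 at 0.71 and Per2 at 1.49 between ages in deficient mice.

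Variation among arrays of the same group was examined next, since the genes of the loop are known to peak at different hours. Deviations from the group means were correlated over the 16 arrays for all 45 pairs of genes, with exact two-sided permutation within groups, and 4 pairs passed an adjusted p of 0.05. The share of pairs of all tested probes that correlate as strongly was not computed, so these pairs are not shown to be particular to the clock genes. Arntl and Clock correlated at r = 0.95 (rho 0.91, exact p 0.000148, adjusted p 0.00606), Cry1 and Clock at r = 0.94 (rho 0.90, exact p 0.000389, adjusted p 0.00606) and Cry1 and Arntl at r = 0.95 (rho 0.88, exact p 0.000404, adjusted p 0.00606). The fourth pair was Nr1d1 and Dbp, at r = 0.88 (rho 0.78, exact p 0.00114, adjusted p 0.0128). By rank correlation 6 pairs passed, the added pairs being Cry2 with Arntl (rho 0.74) and Cry2 with Nr1d1 (rho -0.74), both at an adjusted p of 0.0496.

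Without the 2 arrays farthest from the median the 4 values were 0.85, 0.84, 0.83 and 0.72 in the order given. On the deficient slide alone they were 0.95, 0.95, 0.98 and 0.98, and on the wild-type slide alone 0.96, 0.94, 0.89 and 0.65. With another background correction (normexp), the correlations of Cry1 were 0.58 with Clock and 0.55 with Arntl. Nr1d1 and Dbp had negative values with Arntl, at r = -0.70 (adjusted p 0.165) and r = -0.73 (adjusted p 0.129), and these did not pass. Per1, Per2, Per3 and Npas2 were in none of the pairs that passed.

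A component shared by many probes moved with these correlations. The first component of the deviations of all probes held 45.6% of their variance. Of tested probes, 29.6% correlated with it beyond 0.8 in size and 62.7% beyond 0.5. Arntl correlated with it at -0.96, Clock at -0.93, Cry1 at -0.91 and Cry2 at -0.82, at percentiles 96.7, 92.7, 88.2 and 72.9 of all tested probes in size. Nr1d1 correlated at 0.72 and Dbp at 0.65, at percentiles 59.5 and 51.4. Per1 and Per2 stood at -0.19 and -0.08, at percentiles 13.5 and 5.37 of all tested probes in size. With the component removed the correlations were 0.57 for Arntl and Clock, 0.64 for Cry1 and Clock, 0.65 for Cry1 and Arntl, and 0.78 for Nr1d1 and Dbp. Its 3 largest scores belonged to the 3 arrays that stood apart. These arrays also had the lowest 75th percentile signals, at 625.7, 774.3 and 826.096, and the most outlier spots, at 182, 167 and 164. Array 3 of the wild-type mice at 18 months had nearly the same signal as the third, at 826.115, with 130 outlier spots and a score of -12.37. The part of array signal and spot quality in the component was not tested.

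**Figure D3:**
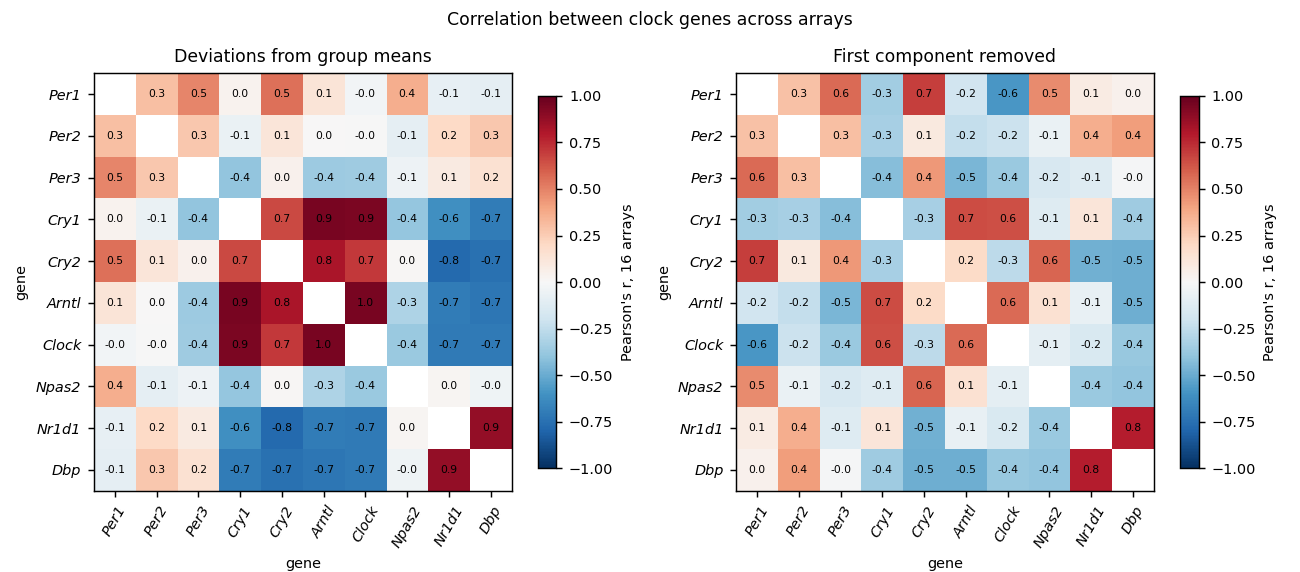
Pearson's r between clock genes over 16 arrays, for deviations from group means (left) and for the same deviations with the first component of all probes removed (right). Arntl, Clock and Cry1 form the darkest block at left, with r of 0.94 to 0.95, and the Nr1d1 and Dbp pair keeps 0.78 at right.

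The genes most like Dbp and Arntl in the same deviations were sought among 13981 named genes above background on all 16 arrays. For Dbp the highest were Agmat (r = 0.94), Daglb (0.92), Ccdc92 (0.91), Rbm42 (0.90) and Fis1 (0.90), and the lowest were Rc3h1 (-0.92), Prrc2c, Lin28b, Sox11 and Trrap (each -0.91). For Arntl the highest were Uba3 (0.99), Fut9, Rbm25, Acyp2 and Zfp442 (each 0.98), and the lowest were Ctsz, Hs1bp3, Ppp1r27 and Rras (each -0.98) and Zdhhc12 (-0.97). No other member of the 10 was among them, and all points share the 16 arrays and the component above.

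The accessory loop and clock-controlled genes, a list of 24 that were all tested, held 0 calls in any of the 7 comparisons by limma. Between the ages in deficient mice 20 of the 24 were higher at 18 months, with a median of 0.17, and 4 had an unadjusted p under 0.05, against 20.4% of all tested probes. In wild-type mice 16 were higher at 18 months, with a median of 0.06 and 2 under 0.05, against 6.28% of probes. Between genotypes 16 were higher in deficient mice at 18 months and 11 at 4 months, with 1 under 0.05 at each age, against 10% and 17.2% of probes. Bhlhe40, a repressor that acts on E-boxes, had levels of 1.79, 1.74, 1.64 and 1.97 in deficient mice at 18 months and 1.71, 0.96, 0.82 and 1.17 in deficient mice at 4 months. It had 1.64, 2.03, 1.66 and 2.17 in wild-type mice at 18 months and 1.70, 1.68, 1.61 and 1.78 in wild-type mice at 4 months. As for Per1 and Per2, 3 of the 4 younger deficient arrays were the lowest of all, but array 1 lay among the other groups. Its age difference in deficient mice was 0.62 ± 0.17 (adjusted p 0.0695, limma), and deficient minus wild type at 4 months was -0.53 ± 0.17 (adjusted p 0.134). Nr1d2, the relative of Nr1d1, and Hlf, the relative of Dbp, differed by 0.45 ± 0.14 and 0.43 ± 0.14 between the ages in deficient mice (adjusted p 0.109 and 0.117). Skp1a, a ubiquitin ligase subunit, differed by 0.24 (adjusted p 0.232). Arntl2, the relative of Arntl, differed from wild type in opposite directions at the 2 ages, without a call. Its genotype difference was 0.30 ± 0.12 at 18 months and -0.23 ± 0.12 at 4 months (adjusted p 0.383 and 0.356), and its interaction of 0.53 ± 0.17 was not called (adjusted p 0.303). The others with the smallest p were Hlf (0.29), Timeless (0.21) and Nr1d2 (0.21) between genotypes at 18 months, and Skp1a (-0.20) and Prkaa1 (-0.19) at 4 months. Between the ages in wild-type mice they were Ciart (0.58), Arntl2 (-0.29), Usp2 (0.21) and Fbxl21 (0.19), at adjusted p-values of at least 0.579.

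**Figure D4:**
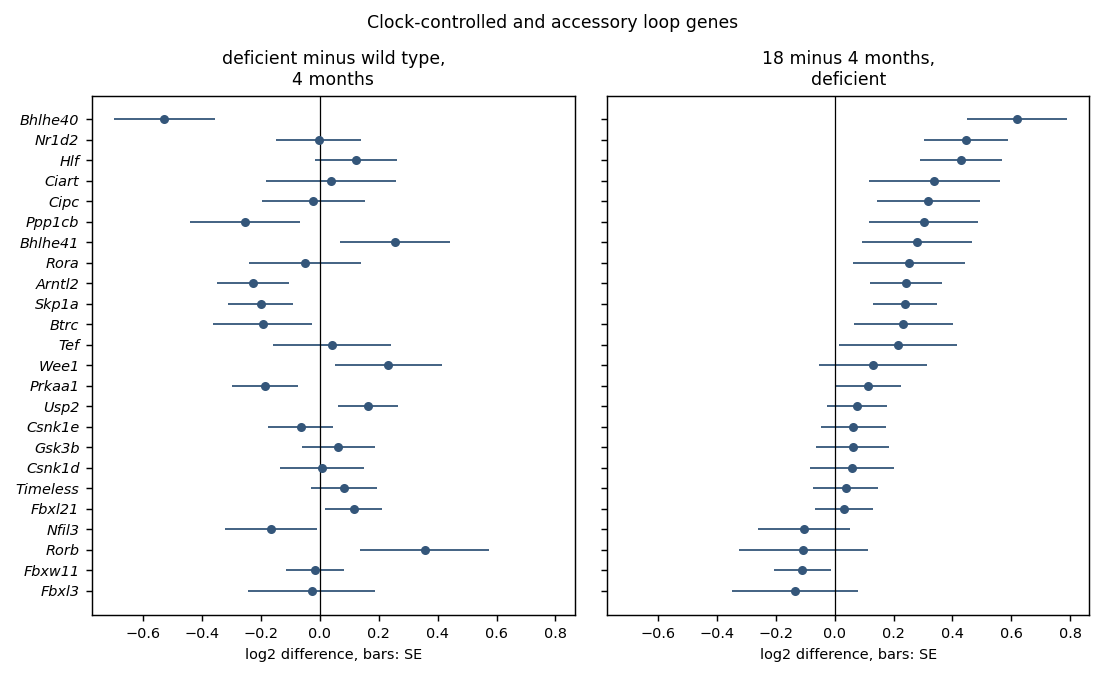
Log2 difference with its standard error for 24 accessory loop and clock-controlled genes, for deficient minus wild type at 4 months (left) and 18 minus 4 months in deficient mice (right), ordered by the right panel. At right 20 of 24 points lie above 0 and at left 11 of 24, and none passed an adjusted p of 0.05.

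Lists of genes that respond to signals able to set the clock were examined beside it. Of 12 immediate early genes, which follow neuronal activity, 0 were called in any comparison. Between the ages 10 of 12 were higher at 18 months in deficient mice (median 0.49, 5 with an unadjusted p under 0.05, against 20.4% of all tested probes) and 12 of 12 in wild-type mice (median 0.34, 2 under 0.05, against 6.28%). Between genotypes 11 of 12 were lower in deficient mice at 4 months (median -0.33, 3 under 0.05, against 17.2%) and 11 of 12 at 18 months (median -0.37, 2 under 0.05, against 10%). Egr1 had the smallest p, at -0.71 ± 0.18 between genotypes at 4 months (adjusted p 0.0653, limma) and 0.64 ± 0.18 between ages in deficient mice (adjusted p 0.071). The next smallest p belonged to Dusp1 (-0.40), Nr4a1 (-0.75) and Egr2 (-0.95) between genotypes at 4 months, and at 18 months the order was Junb (-0.56), Ier2 (-0.37), Dusp1 (-0.32) and Egr4 (-0.46). Between the ages they were Fosb (0.67), Ier2 (-0.41) and Dusp1 (0.39) after Egr1 in deficient mice, and Junb (0.50), Fosb (0.54), Dusp1 (0.31) and Arc (0.47) in wild-type mice. The summed signal of the 12, in units of the array's 75th percentile, ran over 97.1 to 133 in deficient mice at 18 months, 47 to 109 in deficient mice at 4 months, 118 to 154 in wild-type mice at 18 months and 75.8 to 121 in wild-type mice at 4 months. The lowest range was that of the group with the lowest Per1 and Per2. In that group the sums were 47, 109.4, 105.5 and 53.4 on arrays 1 to 4. On the same arrays Per2 was -2.08, -2.15, -2.58 and -2.29, and Per1 was 3.42, 3.90, 3.48 and 3.23. The part of the immediate early genes in the period gene results was not tested.

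Of 12 glucocorticoid-responsive genes, Per1 itself and Zbtb16, a zinc-finger transcription factor, were called, the first between the ages as above. Between genotypes 10 of the 12 were lower in deficient mice at 4 months (median -0.17) and 7 of 12 at 18 months (median -0.01). At each age 2 had an unadjusted p under 0.05 (limma), against 17.2% of probes at 4 months and 10% at 18 months. Zbtb16 was higher in deficient mice by 0.91 ± 0.18 at 18 months (adjusted p 0.0167, limma) and by 0.91 ± 0.18 at 4 months (adjusted p 0.0219), where 1.36% and 1.45% of all tested probes were called. The call was lost in 4 of 29 alternatives at 18 months, at adjusted p-values up to 0.0718, and in 6 of 29 at 4 months, up to 0.13 with only the 2 groups compared. After it the smallest p at 18 months belonged to Sult1a1 (0.67), Mertk (-0.25) and Nfkbia (-0.16), and at 4 months to Per1, Errfi1 (-0.20) and Fkbp5 (-0.32), none of them called. Of 7 temperature-responsive genes tested, Cirbp, a cold-inducible RNA-binding protein gene, was called between the ages in wild-type mice, at 0.54 ± 0.11 (adjusted p 0.0424, against 0.369% of probes called), and differed by -0.24 ± 0.11 in deficient mice (adjusted p 0.227). The call was lost in 23 of 29 alternatives tried, with 0.15 for the mean of the gene's probes. After Cirbp the order of p was Rbm3 (0.57), Hsph1 (-0.16) and Hspa1a (0.30) in wild-type mice, and Hsph1 (0.22), Dnajb1 (0.21) and Hspa1a (0.28) in deficient mice. Of 11 suprachiasmatic markers tested, Prok2, a signalling peptide of that nucleus that is also made in the olfactory bulb, was lower in deficient mice averaged over both ages, at -0.84 ± 0.20 (adjusted p 0.0323, against 3.13% of probes called). Its level was -4.57, -4.28, -4.52 and -4.66 in deficient mice at 18 months and -4.50, -4.75, -3.58 and -4.26 in deficient mice at 4 months, against -3.97, -3.29, -3.59 and -3.40 in wild-type mice at 18 months and -4.44, -3.37, -3.05 and -3.28 in wild-type mice at 4 months. The groups did not overlap at 18 months and overlapped at 4 months, and the call was lost in 14 of 28 alternatives. These were 11 of the 16 that leave out 1 array (adjusted p up to 0.0712), normexp background correction (-0.41, adjusted p 0.0764), no filter (0.0782) and leaving out the 3 arrays that stood apart (-0.72, adjusted p 0.121). Of 5 markers of olfactory epithelium and nerve in the same comparison, 2 were called lower in deficient mice, namely Omp at -1.55 ± 0.39 and S100a5 at -1.54 ± 0.29 (adjusted p 0.043 and 0.00883), 2 were lower and not called, 1 was higher, and the median was -0.07. The summed signal of the 5 overlapped between the genotypes, at 51.2 to 63.7 in deficient mice and 48.8 to 71.2 in wild-type mice at 18 months, and at 59.9 to 127 in deficient mice and 55 to 82.3 in wild-type mice at 4 months. The mean log2 level of the 5, each relative to its own mean over the 16 arrays, did not overlap at 4 months. It was 0.13 to 0.49 in deficient mice and 0.922 to 1.305 in wild-type mice. At 18 months this mean overlapped, at -0.97 to -0.84 in deficient mice and -1.06 to 0.30 in wild-type mice. Their part in the Prok2 result was not tested. Among the other nucleus markers the smallest p belonged to Lhx1 (0.31), Vip (0.22) and Avp (0.68), none of them called in any comparison.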

How the data were processed

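Whole-brain RNA of 16 mice in 4 groups of 4 was hybridised in 1 colour (Cy3). Per the labels' protocols, RNA was isolated with an RNeasy kit. Genotype, age group (old or young) and replicate number came from the sample titles. The age in months came from the sample labels, where it stands under the strain tag and the strain under the age tag. Per the file headers, the deposited spot intensity values were read and background-subtracted by Agilent Feature Extraction 10.7.3.1. The other deposited values were taken as log2, since the sources used here do not state their scale, and limma is named in the submitters' processing notes. These values served as an alternative.

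Outlier spots (98 to 182 per array) were left out, 0 spots were saturated, and spots of a probe were averaged. Spots well above background made up 58.4% to 66.1% of each array, and the number of arrays limits the precision. The level was log2 of the processed intensity minus that of the 75th percentile. All 16 arrays entered a limma 3.58.1 fit with a mean for each group (R 4.3.3, with version 1.17.8 of data.table, 12 residual and 2.94 prior degrees of freedom), and p-values were adjusted by Benjamini and Hochberg over 33072 probes. The procedure was tested on simulated data with independent noise for each probe. That noise lacks the component shared by many probes, so the test does not give the error rates in these data. There were 7 contrasts, namely genotype at each age, age in each genotype, both averages and the interaction. P-values set a difference against the spread between arrays of the same group, and slide and row effects lie outside that spread.

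The members and the gene lists were chosen with earlier results of these data known. Every probe of the 10 genes was reported. Of the lists of accessory, immediate early, glucocorticoid, temperature and suprachiasmatic genes, the called members and the 4 with the smallest p in the comparisons described were named, and 1 gene of the accessory list is not reported here. The genes most like Dbp and Arntl were the 5 highest and 5 lowest correlations. Alternatives covered background correction, scaling, the deposited log2 values, the filter, the unit of the fit, the variance model, the arrays fitted, a replicate block and leaving out each array. Replicate numbers were not taken to pair arrays. Probe positions are those of the scanner files (NCBI37/mm9), and start-site windows come from RefSeq (GRCm38.p6).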

Additional observations from a re-analysis of the deposited data

Results flagged for a closer look

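The genotype difference of Per2 differed between the ages, with an interaction of 1.46 on the log2 scale (adjusted p 0.00228, limma), the deficient arrays lying above the wild-type arrays at 18 months and below them at 4 months. The interaction and the slide row cannot be told apart.

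Single arrays stood far from the other 3 of their group in 5 of 48 sets of 4 arrays examined (Dixon's test), and chance alone flags about 1 in 20 groups. The Per2 level was -0.97 on array 3 of the deficient mice at 18 months, where the other 3 lay between -0.74 and -0.71. It was -1.52 on array 2 of the wild-type mice at 18 months, where the others lay between -1.16 and -1.11. Per3 was -3.80 on array 2 of the wild-type mice at 4 months, and Cry1 was -3.33 on array 4 of the deficient mice at 18 months. Arntl was 0.53 on array 1 of the deficient mice at 4 months, against 1.55 to 1.70 on the others, and that array stood apart over all probes too.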

How the results depend on the processing

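Over 2384 recalculated differences of the 12 clock probes, 2325 kept their side of the threshold, 24 lost a call and 35 gained one. Uncalled differences changed sign 54 times, all of them at most 0.14 in size in the fit reported above, and 0 called differences did. Per2 was called in its 4 comparisons under every alternative except the averaged age difference with slide as a block (0.76, adjusted p 0.103), a fit with no interaction term. In that fit 0 clock genes and 265 probes were called for averaged age. The Per1 age difference in deficient mice lost its call without the filter (adjusted p 0.0683), with only the 2 groups compared (0.104), with the replicate block (0.064), without array 1, 2 or 4 of the older deficient mice (0.0781, 0.0549 and 0.0747), without array 1 or 4 of the younger (0.0518 and 0.0537) and without the 3 arrays apart (0.0543). Its averaged age difference lost the call in 14 of 29 alternatives, at adjusted p-values up to 0.0896. The causes were not tested. In all of these but the last, the clock count for age in deficient mice was 1, while without the 3 arrays apart it was 2, Per2 and Arntl (-0.47, adjusted p 0.046). For averaged age it was 1 without the filter and with the replicate block. With the deposited log2 values 2 clock genes, Per2 and Nr1d1, were called between genotypes at 4 months.

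Over all probes, normexp gave 317 calls for genotype at 4 months, 415 for age in deficient mice, 64 for age in wild-type mice, 296 for averaged age and 47 for the interaction. Testing all probes without the filter gave 283 and 150 for genotype at 18 and 4 months, 571 for averaged genotype, 208 for age in deficient mice, 220 for averaged age and 35 for the interaction. With 1 probe per gene the interaction had 43. Fits of only the 2 groups gave 110 for genotype at 4 months and 175 for age in deficient mice. With the replicate block, genotype at 4 months had 242, age in deficient mice 359 and the interaction 41. Same-numbered arrays did not pair, with correlations of deviations between -0.42 and 0.25, 6 of 24 above 0.1 and 4 arrays closest to their own number.

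Leaving out each array in turn gave 0 to 0 clock genes for genotype at 18 months (254 to 693 probes), 1 to 2 at 4 months (145 to 559), 0 to 0 for averaged genotype (706 to 1262), 1 to 2 for age in deficient mice (175 to 892), 0 to 0 in wild-type mice (77 to 167), 1 to 3 for averaged age (237 to 537) and 1 to 1 for the interaction (44 to 104).

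After the data were seen, the first component of the deviations was added as a covariate. It was estimated from the same deviations that give the error, which lowers that error, and the calls over all probes became 1508 and 5565 for genotype at 18 and 4 months, 3610 for averaged genotype, 8221 for age in deficient mice, 254 in wild-type mice, 4678 for averaged age and 2480 for the interaction. The clock counts in that fit were 6 for genotype at 4 months, 3 for averaged genotype, 7 for age in deficient mice, 7 for averaged age and 4 for the interaction, and none of these is used. Leaving out the 3 arrays apart, also added later, gave 2 for genotype at 4 months and 2 for averaged genotype, Per2 and Cry1 in both. The correlated pairs that passed numbered 2 with normexp, 0 on the deficient slide alone and 0 on the wild-type slide alone, where 8 arrays remain. The number of arrays and the confounding of slide and genotype limit all genotype results.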
